A study of Mus musculus with 4 samples.

Results

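Replication and S phase genes were read in regulatory T cells (Treg), the CD4+ lineage that depends on Foxp3 and restrains immune responses, sorted from mouse spleen. The gene set was a list of 49 symbols covering origin licensing, the replicative helicase, the sliding clamp, the polymerases, nucleotide supply, histone deposition and the regulators of the G1 to S step. It was matched through Ensembl identifiers (version removed), and all 49 symbols were found, each as 1 identifier, among the 38924 identifiers of the count table. All 49 also passed the filter on low counts, which left 14235 genes to test. The study compared resting Treg with activated Treg, with 2 samples in each group from independent animals. RNA came from a spin column (miRNeasy), and the SMART-seq v4 kit for very low inputs made cDNA from it and amplified it by PCR. The labels give CD4+Foxp3+CD62LhiCD44lo cells for both groups, so the gate as printed does not tell them apart. The sources used here give no strain, age, sex, treatment or reporter allele. Each column of the count table is called here by its group and a letter (resting A and B, activated A and B). The letters follow the column order and were not used as pairs across groups, although ratios of B over A were correlated between groups (below).

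DNA replication begins when the origin recognition complex, Cdc6 and Cdt1 load the ring of Mcm2 to Mcm7 onto DNA in G1. In S phase Cdc45 and the GINS complex turn that ring into an active helicase, and the clamp Pcna, set onto DNA by the Rfc loader, holds the polymerases on their template. Many of these genes are transcribed by E2F factors once cyclin-dependent kinases inactivate the Rb family, so their RNA is high in cycling cells and low in quiescent ones. T cells in the spleen are mostly quiescent, and Treg are known to include a cycling fraction.

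Library totals ranged from 20282062 (activated B) to 31851982 counts (resting B), and 18928 (resting B) to 23398 genes (activated B) were detected per library. The library with the lowest total thus had the most genes detected, and the one with the highest total the fewest. T and Treg markers were all present: the 8 genes (Cd3d, Cd3e, Cd3g, Cd4, Foxp3, Il2ra, Ctla4, Ikzf2) summed to 5631 to 6569 CPM in resting and 6074 to 7597 CPM in activated libraries, where CPM is a read count scaled for library size with edgeR's TMM factors. Libraries of 1 group differed in markers of other cells. The 6 macrophage markers (Adgre1, Csf1r, C1qa, C1qb, C1qc, Vcam1) summed to 458 CPM in resting A and 10.7 in resting B, and to 386 CPM in activated A and 26.7 in activated B. Of 9 erythroid markers 8 were found; they summed to 26.7 and 1.01 CPM in the resting, and 16.1 and 2.27 CPM in the activated libraries (A, B), with Epb42 and Slc4a1 at 0 counts in resting B, Klf1 at 0 in resting A and Slc4a1 at 0 in activated B. Plasmacytoid dendritic markers (Siglech, Tcf4, Klk1, Cox6a2, Ccr9) lay at 26.1 to 36.2 CPM in resting and 143 to 610 CPM in activated libraries, with Klk1 at 0 in resting B. Sums ran from 44.2 to 116 CPM for the 6 B cell markers, from 10.7 to 45.7 for the 4 plasma cell markers, from 27.3 to 81.8 for Cd8a and Cd8b1, and from 0.131 to 2.65 for the 6 neutrophil markers, of which each library had at least 1 at 0. The B cell sum hides opposite shifts. In the 5 tested B cell markers, edgeR log2 fold changes of activated over resting ran from -3.53 to 2.84. The groups did not overlap, with activated lower in 3 (17.4% of all genes tested) and higher in 2 (19.8%).

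Replication and S phase genes did not separate activated from resting Treg in these 4 libraries, and their largest differences lay between the libraries of 1 group. Their summed level was 2187 and 3948 CPM in the resting libraries (A, B), and 2363 and 3546 CPM in the activated ones. The library named B was thus the higher one in each group, 1.81-fold in resting and 1.5-fold in activated Treg, while the activated mean of 2955 ± 836 CPM (SD, n = 2) lay within the spread of the resting mean of 3068 ± 1246 CPM. In bulk samples fewer cycling cells and less of these RNAs per cell cannot be told apart. The 2 libraries with the lower sums, resting A and activated A, were also those with the higher macrophage and erythroid sums given above. Plasmacytoid dendritic sums were higher there too (A, B), at 36.2 and 26.1 CPM in resting and 610 and 143 CPM in activated Treg. So were the sums of Cd8a and Cd8b1 and of the neutrophil markers. Sums of T and Treg, B cell and plasma cell markers were instead higher in the B libraries. The part of any of these markers in the difference was not tested.

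By edgeR's quasi-likelihood test over all 14235 genes, 0 of the 49 genes passed an adjusted p of 0.05 (percentage called among all genes, 0%), with a smallest adjusted p of 0.839 among the 49. At an unadjusted p under 0.05, edgeR counted 0 of the 49 lower (2.61% of all genes tested) and 0 higher (6.3%), the smallest unadjusted p being 0.19 for Rpa1. DESeq2 called 0 lower (0.845%) and 0 higher (2.32%) at an adjusted p under 0.05, and limma-voom called 0 of the 49 and 0 of all genes. Limma on the authors' regularized log2 values, with replicate numbers as blocks, called 1 of the 49, E2f2 (10.9% of all genes). The edgeR log2 fold changes of activated over resting ran from -0.60 to 0.33, 25 below 0 (50.9% of all genes tested) and 24 above it. Their median was -0.00015 beside -0.0072 for all genes tested. Their standard errors (SE), derived from edgeR's F statistic, ran from 0.19 to 0.80 and exceeded the fold change in 43 of the 49. With 2 libraries a group, a p that misses the threshold does not show that the levels are alike, and the smallest p a two-sided exact permutation test allows here is 0.333.

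**Figure D1:**
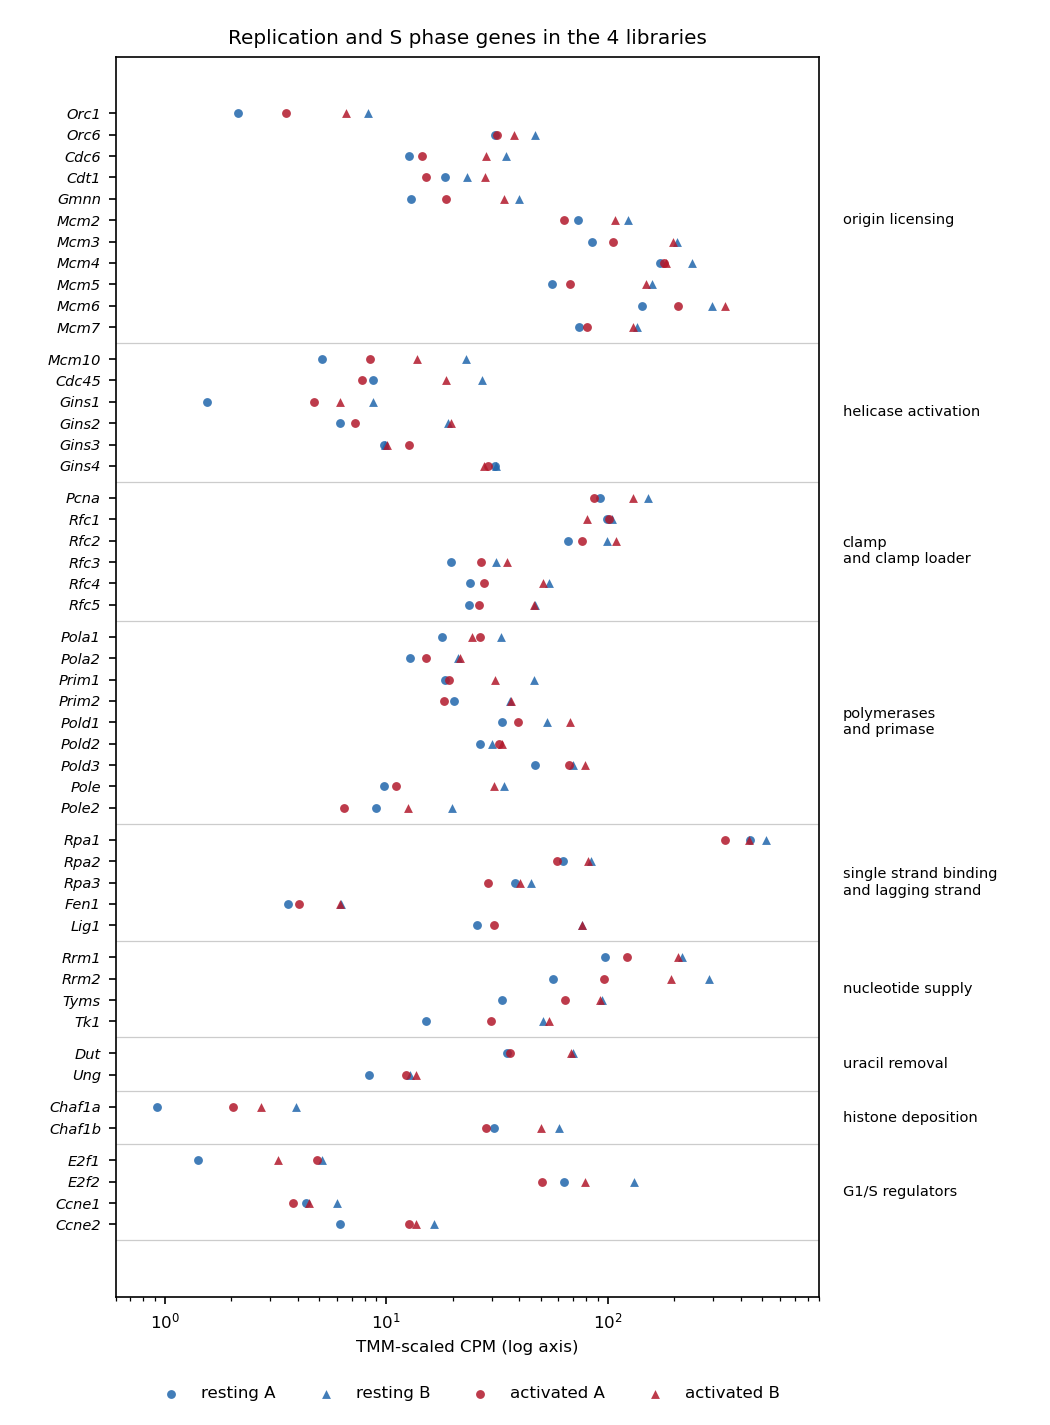
CPM (log axis) of the 49 replication and S phase genes, grouped by role, with 1 marker per library (circles for libraries A, triangles for libraries B, blue for resting and red for activated). In most rows the 2 triangles lie to the right of the 2 circles, whatever their colour, as for Lig1 at 25.7 and 76.7 CPM in the resting and 30.6 and 76.3 CPM in the activated libraries.

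The groups did not overlap in 4 of the 49 genes (37.2% of all genes tested). Activated values were the lower pair in 2 of these, Gins4 and Rpa1 (17.4%), and the higher pair in the other two, Gins3 and Pold2 (19.8%). The ranges of the 2 groups overlapped in the other 45. The larger of the 2 within-group ratios exceeded the difference between groups in 47 of 49 genes, beside 73.8% of all genes tested; the exceptions were Gins4 and Pold2. Resting B was the highest library for 36 of the 49 (19.6% of all genes) and activated B for 12 (29.4%). Resting A was the lowest for 35 (27.6%) and activated A for 12 (21.4%). A single order, resting B above activated B above activated A above resting A, held for 22 of the 49 and for 4.12% of all genes.

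Origin licensing genes were all present and their groups overlapped in all 11. Orc1, the subunit of the origin recognition complex that is made anew in cycling cells, was at 2.14 and 8.29 CPM in the resting (A, B) and 3.53 and 6.61 CPM in the activated libraries. Orc1 (ENSMUSG00000028587.12, mm10 chromosome 4 from 108579423 to 108614833, plus strand) was thus lowest in resting A, where it had 44 counts. Orc6, a further subunit of that complex, was at 30.97 and 47.1 CPM in the resting (A, B) and 31.6 and 37.9 CPM in the activated libraries, a narrower range. Cdc6, the loader that joins the complex in G1, was at 12.7 and 34.7 CPM in the resting (A, B) and 14.5 and 28.2 CPM in the activated libraries. Both Orc6 and Cdc6 were thus higher in the B libraries. Its partner Cdt1 was at 18.5 and 23.1 CPM in the resting (A, B) and 15.2 and 28.03 CPM in the activated libraries, with activated B highest. Geminin (Gmnn), which binds and blocks Cdt1, was at 12.9 and 39.7 CPM in the resting (A, B) and 18.6 and 34.1 CPM in the activated libraries. Geminin thus differed more between the resting libraries (log2 ratio 1.61 of B over A) than the Cdt1 it inhibits (0.32).

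The 6 subunits of the Mcm ring showed log2 fold changes between -0.20 (Mcm2) and 0.31 (Mcm6). Mcm2 was at 73.4 and 123 CPM in the resting (A, B) and 63.6 and 108 CPM in the activated libraries. Mcm5 was at 55.9 and 159 CPM in the resting (A, B) and 67.9 and 148 CPM in the activated libraries, and its group means were nearly equal (log2 fold change 0.01 ± 0.60 SE, edgeR adjusted p = 0.999). Mcm4 was at 172 and 239.9 CPM in the resting (A, B) and 180.03 and 184 CPM in the activated libraries, and resting B alone stood out. Mcm6, the subunit with the highest fold change of the ring, was at 143 and 295 CPM in the resting (A, B) and 207 and 338 CPM in the activated libraries. Activated B was highest, resting A lowest and the groups overlapped (log2 fold change 0.31 ± 0.42 SE, edgeR adjusted p = 0.969). Resting and activated log2 ratios of B over A were 1.28 and 0.90 for Mcm3 and 0.87 and 0.70 for Mcm7. The ring holds its subunits in equal number, yet per kilobase of annotated exon their mean levels were 54.01 CPM for Mcm4, 52.7 for Mcm6, 39.5 for Mcm3, 27.01 for Mcm5, 23.8 for Mcm7 and 13.3 for Mcm2. These levels use the length of all annotated exons, which is longer than the transcript in use where rare isoforms are annotated.

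Helicase activation genes held the largest and the smallest resting ratios. Gins1, a GINS subunit, had 1.56 and 8.72 CPM in the resting (A, B) and 4.71 and 6.17 CPM in the activated libraries, that is 32, 267, 144 and 125 counts. Resting B exceeded resting A 5.603-fold (95% exact counting interval 3.87 to 8.36), the highest ratio of the 49, while the activated libraries differed 1.31-fold. Mcm10, which helps start the fork, was at 5.15 and 22.9 CPM in the resting (A, B) and 8.47 and 13.8 CPM in the activated libraries. Cdc45, the helicase cofactor, was at 8.702 and 27.1 CPM in the resting (A, B) and 7.79 and 18.6 CPM in the activated libraries. In all 3 of these genes resting B was highest. Gins4, another subunit of the same complex, was instead nearly flat at 31.1 and 31.2 CPM in the resting (A, B) and 28.7 and 27.6 CPM in the activated libraries (log2 fold change -0.15 ± 0.19 SE). Gins3 was at 9.77 and 9.86 CPM in the resting (A, B) and 12.7 and 10.1 CPM in the activated libraries (log2 fold change 0.21 ± 0.28 SE), with activated A highest. Gins2 (1.60 and 1.42 in log2 within resting and activated) had ratios near those of Cdc45 (1.63 and 1.25), but 67.3% of its annotated exon bases are shared with Gse1 on the other strand. Within 1 complex of 4 subunits, the resting log2 ratio thus ran from 0.0029 to 2.43, and the level per kilobase from 3.17 CPM (Gins2) to 21.97 (Gins4).

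Of the clamp and its loader, Pcna was at 92.5 and 151 CPM in the resting (A, B) and 86.4 and 131 CPM in the activated libraries. Both B libraries lay above both A libraries, and the log2 fold change between groups was -0.17 ± 0.33 SE. Pcna lies on mm10 chromosome 2 from 132249162 to 132253314 (ENSMUSG00000027342.8); 2 processed copies, Pcna-ps1 and Pcna-ps2, are annotated, and no source used here says how reads shared with them were counted. Rfc1, the large subunit of the loader, was at 99.02 and 105 CPM in the resting (A, B) and 101 and 80.8 CPM in the activated libraries, with activated B lowest. The small subunits Rfc2 to Rfc5 had resting log2 ratios of 0.57, 0.67, 1.18 and 0.98 in this order, and activated ones of 0.50, 0.39, 0.87 and 0.83. Rfc1 had ratios of 0.09 and -0.32, and was the one loader subunit whose ratio differed in sign between the groups.

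Among the polymerases, the catalytic subunit of the leading strand enzyme, Pole, was at 9.82 and 34.02 CPM in the resting (A, B) and 11.03 and 30.7 CPM in the activated libraries. It had the highest activated ratio of the 49, 2.79-fold (95% counting interval 2.44 to 3.19). Its second subunit Pole2 was at 9.04 and 19.8 CPM in the resting (A, B) and 6.45 and 12.6 CPM in the activated libraries. It had the lowest fold change of the 49 (log2 fold change -0.60 ± 0.52 SE, edgeR adjusted p = 0.921), with the groups overlapping. Polymerase delta subunits were more even. Pold2 was at 26.5 and 29.9 CPM in the resting (A, B) and 32.4 and 33.4 CPM in the activated libraries. Activated values were the higher pair (log2 fold change 0.22 ± 0.19 SE, edgeR adjusted p = 0.924). Pold3 was at 47.01 and 70.02 CPM in the resting (A, B) and 67.2 and 79.01 CPM in the activated libraries, with resting A lowest (log2 fold change 0.32 ± 0.25 SE). Pold1, the catalytic subunit, had resting and activated log2 ratios of 0.68 and 0.78. Of the primase-polymerase alpha complex, which lays the first primers, Prim1 was at 18.5 and 46.5 CPM in the resting (A, B) and 19.2 and 31.1 CPM in the activated libraries. The remaining subunits of that complex had resting log2 ratios of 0.88 (Pola1), 0.71 (Pola2) and 0.84 (Prim2) and activated ones of -0.12, 0.51 and 0.995.

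The single-strand binding protein RPA also serves DNA repair outside S phase. Its large subunit Rpa1 had the highest mean level per kilobase of the 49 (77.5 CPM per kilobase), from 439.9 and 516 CPM in the resting (A, B) and 340.01 and 433 CPM in the activated libraries. Rpa1 (ENSMUSG00000000751.7, mm10 chromosome 11 from 75298166 to 75348324, minus strand) was lower in both activated libraries than in both resting ones but did not pass the test (log2 fold change -0.31 ± 0.20 SE, edgeR adjusted p = 0.839). Rpa3 was at 38.1 and 44.9 CPM in the resting (A, B) and 28.8 and 40.1 CPM in the activated libraries. The middle subunit Rpa2 had resting and activated log2 ratios of 0.42 and 0.46. Lig1, the ligase that seals Okazaki fragments, differed far more within groups, at 25.7 and 76.7 CPM in the resting (A, B) and 30.6 and 76.3 CPM in the activated libraries. Fen1, the nuclease that trims them, was at 3.597 and 6.27 CPM in the resting (A, B) and 4.02 and 6.22 CPM in the activated libraries. Of its annotated exon bases 84.2% are shared with genes on the other strand (Tmem258 and Gm10143), and the strand setting of the counting is not given.

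Nucleotide supply genes had the highest median resting log2 ratio of the 9 roles, 1.63, beside 0.82 in activated Treg. Rrm2, the subunit that limits ribonucleotide reductase and is degraded outside S phase, was at 56.7 and 288 CPM in the resting (A, B) and 96.6 and 194 CPM in the activated libraries. Resting B exceeded resting A 5.08-fold (95% counting interval 4.78 to 5.404) and activated B exceeded activated A 2.01-fold, while the group means gave a log2 fold change of -0.25 ± 0.78 SE. Its partner Rrm1, which is known to be more stable through the cycle, ranged less, at 97.03 and 216 CPM in the resting (A, B) and 122 and 208 CPM in the activated libraries. Tyms, which makes thymidylate and has an annotated pseudogene copy (Tyms-ps), was at 33.5 and 94.7 CPM in the resting (A, B) and 64.2 and 91.99 CPM in the activated libraries, with resting A lowest. Tk1, the salvage kinase of S phase, was at 15.1 and 51.2 CPM in the resting (A, B) and 29.7 and 54.1 CPM in the activated libraries. It had the highest fold change of the 49 (log2 fold change 0.33 ± 0.62 SE, edgeR adjusted p = 0.992). Dut, which removes dUTP, was at 34.95 and 69.96 CPM in the resting (A, B) and 36.2 and 68.3 CPM in the activated libraries. Ung, the glycosylase that excises uracil from DNA, was at 8.41 and 12.8 CPM in the resting (A, B) and 12.2 and 13.6 CPM in the activated libraries. Resting A was lowest and the other 3 libraries were close together.

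Chaf1b, a subunit of the chromatin assembly factor that places histones on new DNA, was at 30.8 and 60.1 CPM in the resting (A, B) and 28.2 and 50.2 CPM in the activated libraries. Chaf1a, its large partner, had few counts (19 and 120 in the resting, 62 and 55 in the activated libraries), or 0.924 and 3.92 CPM in the resting (A, B) and 2.03 and 2.71 CPM in the activated libraries. Its resting ratio of 4.24-fold had a 95% counting interval of 2.601 to 7.29, and the activated one of 1.34-fold an interval of 0.913 to 1.96, which includes 1. Of its annotated exon bases, 52.5% are shared with Ubxn6 on the other strand.

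The regulators of S phase entry behaved unevenly. The activator E2F factor E2f2 was at 63.7 and 132 CPM in the resting (A, B) and 50.4 and 78.9 CPM in the activated libraries. E2f1, another activator, was at 1.41 and 5.16 CPM in the resting (A, B) and 4.87 and 3.26 CPM in the activated libraries (29, 158, 149 and 66 counts). Per kilobase, E2f2 was the more abundant (16.6 against 1.17 CPM, mean of 4 libraries). E2f2 had the second lowest fold change of the 49 (log2 fold change -0.60 ± 0.42 SE, edgeR adjusted p = 0.861). With replicate numbers as blocks, limma on the regularized log2 values called E2f2 (log2 difference -0.50, adjusted p = 0.0316), as it called 10.9% of all genes. E2f1 was the one of these 2 genes with activated A above activated B. The E-type cyclins, which activate Cdk2 at the G1 to S step, also differed. Ccne1 was at 4.33 and 5.97 CPM in the resting (A, B) and 3.795 and 4.49 CPM in the activated libraries. Ccne2 was at 6.17 and 16.4 CPM in the resting (A, B) and 12.6 and 13.6 CPM in the activated libraries. Ccne2 was low in resting A alone (log2 fold change 0.21 ± 0.50 SE), while Ccne1 had its highest value in resting B (log2 fold change -0.31 ± 0.37 SE).

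**Figure D2:**
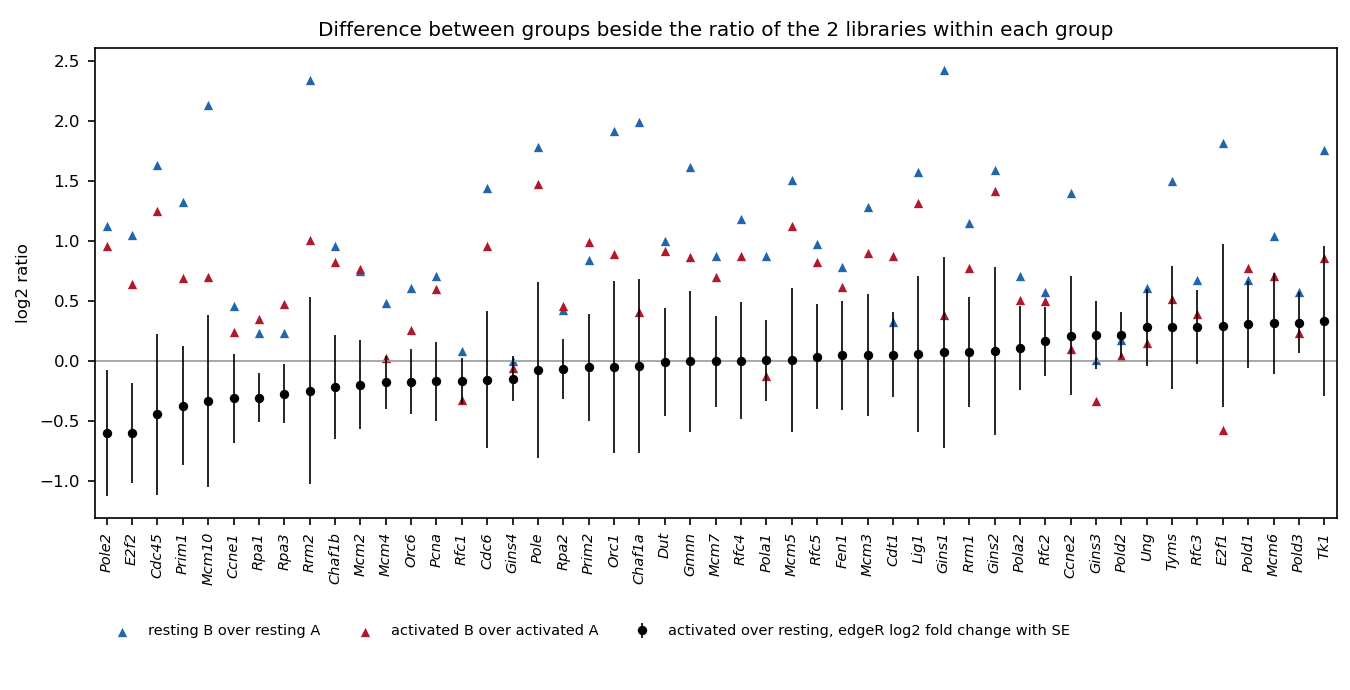
For each of the 49 genes, ordered by the edgeR log2 fold change of activated over resting (black points, bars are 1 SE), the log2 ratio of the 2 resting libraries (blue) and of the 2 activated libraries (red). The group differences stay between -0.60 and 0.33, while the resting ratios reach 2.43 (Gins1) and the activated ones 1.47 (Pole).

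Within the resting group, library B exceeded library A in all 49 genes (49.7% of all genes tested), by a median log2 ratio of 0.98 beside 0 for all genes. In 23 of the 49 it did so by over 2-fold (7.37% of all genes tested), and in 0 of the 49 was A over 2-fold higher (7.64%). Within the activated group B exceeded A in 44 of 49 (48.3%), by a median of 0.69 beside -0.03 for all genes, in 6 by over 2-fold (5.93%), with 0 the other way (10%). Such ratios compare 1 library with 1 library and have no test. Between the groups, the log2 ratios of B over A correlated at 0.47 across the 49 and at 0.50 across all genes tested. On the authors' regularized log2 values, where columns carry replicate numbers, the median of replicate 2 minus replicate 1 over the 49 was 0.89 in resting and 0.60 in activated Treg. Counting error alone was smaller: the 95% interval of the ratio lay above 1 for 47 of 49 genes in resting (31.4% of all genes tested) and 38 in activated Treg (32.3%). It lay below 1 for 0 (31.2%) and 3 (35.9%), the 3 being E2f1, Rfc1 and Gins3. These intervals come from reads amplified by PCR with no molecular identifiers, so they cover counting error only. By role, the median resting log2 ratio was 1.63 for nucleotide supply, 1.61 for helicase activation, 1.48 for histone deposition, 1.22 for G1/S regulators, 1.04 for origin licensing, 0.84 for polymerases and primase, 0.80 for uracil removal, 0.69 for the clamp and its loader and 0.42 for single-strand binding and the lagging strand.

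**Figure D3:**
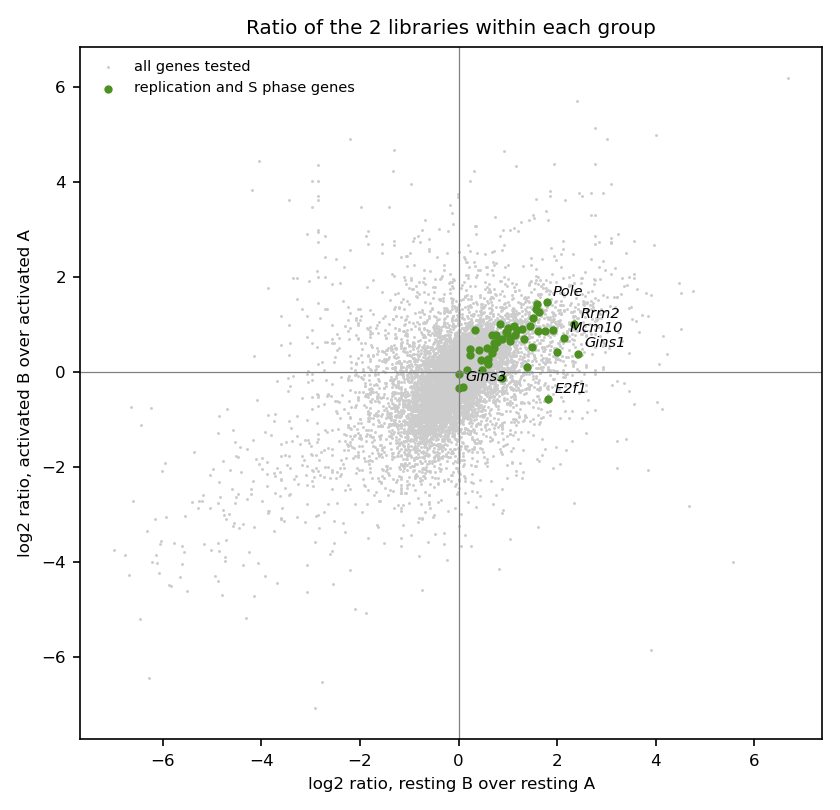
Log2 ratio of resting B over resting A (x axis) against log2 ratio of activated B over activated A (y axis) for the 49 genes (green) and all genes tested (grey), with a prior count of 2. The green points lie right of 0 on the x axis, with 44 of them above 0 on the y axis and E2f1 below it at -0.57.

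The sign of most group differences changed with the library left out. Without resting A, 44 of the 49 had a log2 fold change below 0 with a median of -0.41, and 6 reached an unadjusted edgeR p under 0.05 (Mcm10, Cdc45, Prim1, Pole2, Rrm2 and E2f2, beside 1.5% of all genes lower in that fit). Without resting B, 44 lay above 0 with a median of 0.58, and 4 were higher at that threshold (Gins1, Rrm2, Tyms and Tk1, beside 6.69%). Rrm2 is in both sets, with opposite sign. Without activated A the median was 0.27, with 0 of the 49 lower (4.72%) and 0 higher (7.38%) at that threshold. Without activated B it was -0.44, with 0 lower (1.54%) and 0 higher (5.11%). Values of the 2 groups did not overlap, activated lower, in 36 of 49 genes without resting A (28.6%) and in 13 without activated B (32.3%), and, activated higher, in 35 without resting B (34.5%) and in 13 without activated A (41.7%). In these 4 edgeR fits 0 of the 49 passed an adjusted p of 0.05 (2.31%, 1.28%, 0% and 0.409% of all genes, in the order resting A, resting B, activated A, activated B left out), the smallest adjusted p being 0.272, 0.229, 0.487 and 0.823.

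**Figure D4:**
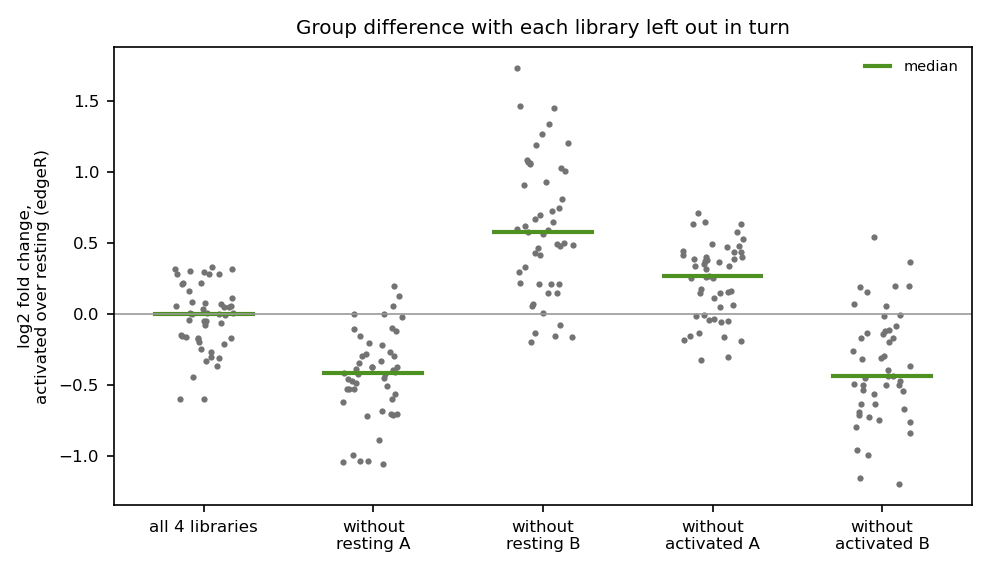
EdgeR log2 fold change of activated over resting for each of the 49 genes (grey points) and their median (green bar) with all 4 libraries and with each library left out in turn. The median moves from -0.41 without resting A to 0.58 without resting B.

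Other genes of the cell cycle were read from 3 further lists. Of 39 further replication genes, 0 passed by edgeR over all genes and 34 had a log2 fold change below 0 (median -0.18), beside 50.9% of all genes tested. At an unadjusted p under 0.05, edgeR counted 2 lower (2.61% of all genes) and 0 higher (6.3%). Activated values were the lower pair in 8 (17.4%) and the higher pair in 0 (19.8%). The 2 were Samhd1, a dNTP hydrolase of resting cells, at 927 and 970.5 CPM in the resting (A, B) and 686 and 675 CPM in the activated libraries (log2 fold change -0.48 ± 0.15 SE, edgeR adjusted p = 0.453), and Timeless. Timeless, a fork protection protein, was at 64.1 and 75.05 CPM in the resting (A, B) and 34.3 and 49.1 CPM in the activated libraries (log2 fold change -0.74 ± 0.24 SE, edgeR adjusted p = 0.467). Mcmbp, which binds Mcm subunits, was at 267 and 218 CPM in the resting (A, B) and 197 and 164 CPM in the activated libraries. In this list the median log2 ratio of B over A was 0.33 in resting and 0.26 in activated Treg.

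Of 22 genes that control the G1 to S step, 0 passed over all genes, 1 was lower (2.61% of all genes) and 1 higher (6.3%) at an unadjusted p under 0.05, and 14 lay below 0 (50.9%, median -0.10). Rbl2, the Rb family protein of quiescent cells, was at 120.5 and 137 CPM in the resting (A, B) and 194 and 199 CPM in the activated libraries (log2 fold change 0.61 ± 0.17 SE, edgeR adjusted p = 0.378), higher in both activated libraries. Ccnd2, a D-type cyclin of growth factor response, was at 1078 and 1058 CPM in the resting (A, B) and 785 and 713 CPM in the activated libraries (log2 fold change -0.51 ± 0.16 SE, edgeR adjusted p = 0.433), lower in both. Its partner kinase Cdk4 was at 173 and 224 CPM in the resting (A, B) and 182 and 226 CPM in the activated libraries. The median resting and activated log2 ratios of this list were 0.39 and 0.18.

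Mitosis genes shared the within-group pattern in larger size. For the 18 genes of that list the median log2 ratio of B over A was 2.34 in resting and 1.06 in activated Treg, and their summed level was 267 and 1270.3 CPM in the resting, and 409 and 821 CPM in the activated libraries (A, B). In this sum resting A lay below both activated libraries and resting B above both. All 18 had an edgeR log2 fold change below 0 (50.9% of all genes, median -0.32), 0 passed over all genes, and 1 was lower at an unadjusted p under 0.05 (2.61%). It was Ndc80 of the kinetochore, at 21.6 and 39.2 CPM in the resting (A, B) and 14.8 and 17.7 CPM in the activated libraries. Mki67, the proliferation marker, was at 26.1 and 131 CPM in the resting (A, B) and 50.1 and 74.9 CPM in the activated libraries. Top2a is the topoisomerase that separates sister DNA, and its values were 79.5 and 337 CPM in the resting (A, B) and 120.5 and 230.4 CPM in the activated libraries, with the groups overlapping as for Mki67. Cenpf, also of the kinetochore, was at 6.71 and 33.7 CPM in the resting (A, B) and 11.6 and 13.03 CPM in the activated libraries. For Mki67 and Top2a the size of the difference depended on the method. Their log2 fold changes were -0.33 and -0.25 by edgeR and -0.33 and -0.24 by DESeq2, but near 0 by limma-voom (0.0029 and 0.0006). Ndc80 and Cenpf lay below 0 by each of these methods, at -0.89 and -0.43 by limma-voom. The order of the 4 libraries in the summed CPM of this list was the most frequent order among the 49, with resting B highest and resting A lowest.

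**Figure D5:**
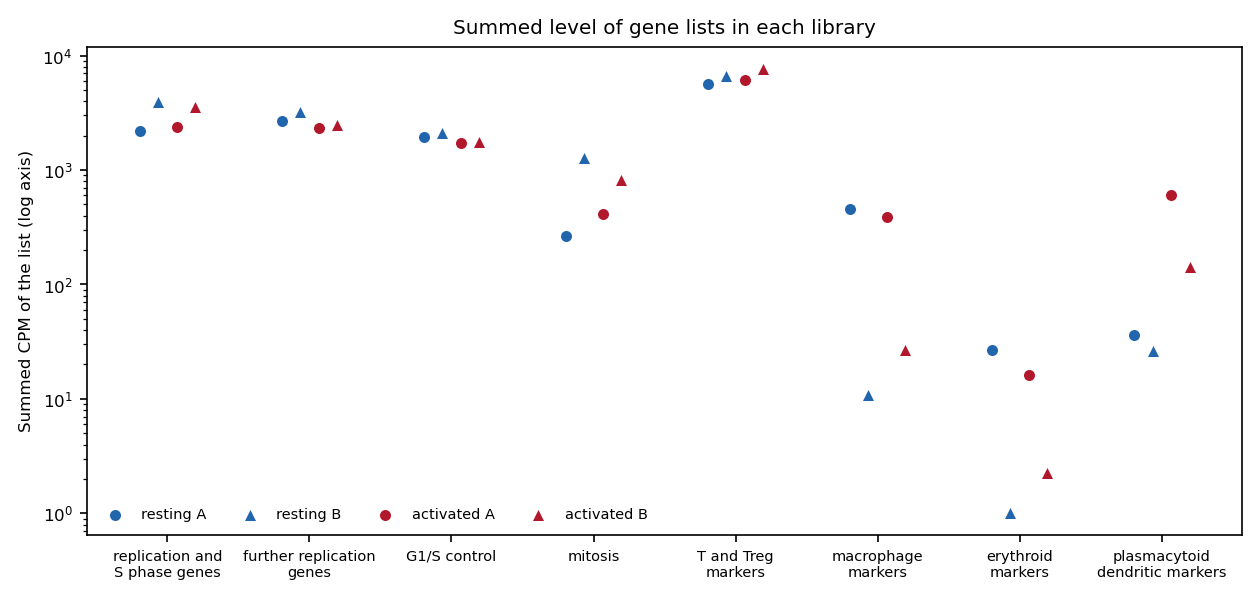
Summed CPM (log axis) of 8 gene lists in each library (circles for libraries A, triangles for libraries B, blue for resting and red for activated). Replication and mitosis lists are higher in the B library of each group. Macrophage, erythroid and plasmacytoid dendritic lists are higher in the A library, at 458 and 386 CPM for macrophage markers beside 10.7 and 26.7.

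Promoter sequence was not itself used to choose these genes. Many S phase genes are known E2F targets, however, so the share of E2F-type words is not independent of the choice. RefSeq promoter windows (250 bases before to 50 after the start, GRCm38.p6) were matched by symbol for 40 of the 49 genes, with 46 windows. E2F-type words (TTTCCCGC, TTTCGCGC, TTTGCCGC or TTTGGCGC, on either strand) were found in a window of 15 of the 40 genes, 37.5%, beside 4.61% of 10039 tested genes with a window and 2.6% of all 27025 genes with a window. In the 250 bases before the start alone they were found in 8 of 40, 20%, beside 3.83% of tested genes. CCAAT words (CCAAT, either strand) were found in 23 of the 40, 57.5%, beside 43.1%, and the word TTTGAA of the CHR element of late cell cycle promoters, on either strand, in 6, 15%, beside 14.6%. A match describes letters and is not a measured binding site.

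The 15 stretches with an E2F-type word are shown because this word was found in a larger share of these promoters than of all tested ones, although 25 of the 40 lack it. Each is 30 bases, read 5′ to 3′ on the gene's strand around the first word in the window, with E2F-type words in capitals; the 2 words in Mcm5 and in Mcm6 overlap.
Cdc6: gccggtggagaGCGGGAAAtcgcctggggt
Cdt1: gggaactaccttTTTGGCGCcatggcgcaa
E2f2: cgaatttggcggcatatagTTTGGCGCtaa
Gins3: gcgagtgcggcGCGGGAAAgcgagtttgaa
Lig1: cgccaaagtgcGCGCGAAAtctgtgtggcg
Mcm3: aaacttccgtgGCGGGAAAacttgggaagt
Mcm5: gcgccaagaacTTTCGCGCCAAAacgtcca
Mcm6: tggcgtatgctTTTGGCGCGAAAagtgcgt
Mcm7: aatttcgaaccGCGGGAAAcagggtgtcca
Orc1: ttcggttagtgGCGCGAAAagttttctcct
Pola1: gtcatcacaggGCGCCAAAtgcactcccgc
Pold1: cacggcggcgtatcttgtgGCGGGAAAagc
Pold3: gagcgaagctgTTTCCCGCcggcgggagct
Pole2: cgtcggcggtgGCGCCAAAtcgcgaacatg
Rfc3: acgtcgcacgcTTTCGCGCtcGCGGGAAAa
Stretches of Mcm5, Mcm6 and Rfc3 hold a word on each strand. The first word lay 10 bases before the start in Rfc3 and 165 before it in Mcm7, and after the start in Cdt1, E2f2, Lig1, Mcm3, Pold1, Pold3 and Pole2. Coordinates for 3 of them are chr8:75109345-75109374 (plus strand) for Mcm5, chr1:128359797-128359826 (minus strand) for Mcm6 and chr4:108579416-108579445 (plus strand) for Orc1.

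Genes with and without an E2F-type word had overlapping ranges of the within-group ratio. In the 15 with a word the resting log2 ratio had a median of 1.04 and ran from 0.01 (Gins3) to 1.92 (Orc1), and in the 25 without one it had a median of 0.96 and ran from 0.09 (Rfc1) to 2.34 (Rrm2). The activated medians were 0.78 and 0.60. The bases before the start are shown for the 3 genes with the largest resting ratio and the 3 with the smallest among those with a window, to set both kinds of promoter side by side; E2F-type and CCAAT words are in capitals.
Rrm2: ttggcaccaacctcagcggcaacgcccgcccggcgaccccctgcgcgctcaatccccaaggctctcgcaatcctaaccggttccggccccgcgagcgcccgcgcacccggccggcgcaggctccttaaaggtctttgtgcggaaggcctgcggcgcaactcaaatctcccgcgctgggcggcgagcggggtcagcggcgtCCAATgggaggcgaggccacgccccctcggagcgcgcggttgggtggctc
Mcm10: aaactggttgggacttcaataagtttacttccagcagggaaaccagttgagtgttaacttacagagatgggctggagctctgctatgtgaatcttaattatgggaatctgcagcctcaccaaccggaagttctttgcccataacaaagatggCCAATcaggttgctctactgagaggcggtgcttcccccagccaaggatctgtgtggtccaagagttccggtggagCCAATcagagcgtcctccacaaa
Chaf1a: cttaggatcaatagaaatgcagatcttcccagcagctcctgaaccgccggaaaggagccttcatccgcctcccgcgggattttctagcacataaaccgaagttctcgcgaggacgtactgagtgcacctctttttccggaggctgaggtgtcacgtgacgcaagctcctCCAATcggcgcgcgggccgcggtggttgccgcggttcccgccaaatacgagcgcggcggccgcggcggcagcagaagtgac
Gins3: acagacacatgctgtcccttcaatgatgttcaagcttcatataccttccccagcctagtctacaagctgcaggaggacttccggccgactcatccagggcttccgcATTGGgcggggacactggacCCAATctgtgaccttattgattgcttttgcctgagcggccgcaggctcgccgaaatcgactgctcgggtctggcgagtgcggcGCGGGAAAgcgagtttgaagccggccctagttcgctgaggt
Rfc1: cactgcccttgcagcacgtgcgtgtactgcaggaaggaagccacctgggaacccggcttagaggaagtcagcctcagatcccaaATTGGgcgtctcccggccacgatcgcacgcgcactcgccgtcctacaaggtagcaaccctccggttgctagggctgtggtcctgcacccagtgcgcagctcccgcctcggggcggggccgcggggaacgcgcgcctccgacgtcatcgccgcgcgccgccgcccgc
Pold2: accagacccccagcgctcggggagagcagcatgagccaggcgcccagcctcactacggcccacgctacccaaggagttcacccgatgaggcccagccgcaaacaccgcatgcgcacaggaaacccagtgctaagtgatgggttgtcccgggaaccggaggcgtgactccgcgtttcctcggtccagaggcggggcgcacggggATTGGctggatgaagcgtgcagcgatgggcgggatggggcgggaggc
Pold2 has 2 windows, of which 1 is shown. In order, these lie at chr12:24708004-24708253 (plus strand), chr2:5012792-5013041 (minus strand), chr17:56040166-56040415 (plus strand), chr8:95633309-95633558 (plus strand), chr5:65335640-65335889 (minus strand) and chr11:5878257-5878506 (minus strand). None of the 3 with the largest ratio (Rrm2, Mcm10, Chaf1a) holds an E2F-type word in these bases, and Gins3, with nearly no ratio, holds 1. All 6 hold at least 1 CCAAT word, 2 in Mcm10 and in Gins3. The absence of these letters from a window says nothing of the factor.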

How the data were processed

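RNA of 2 resting and 2 activated Treg samples was sequenced. The authors deposited raw counts per Ensembl gene and, in a second table, log2 values from DESeq2's regularized log. Per the submitters' processing notes, tools were DESeq2, featureCounts and STAR 2.4.0c, with the mm10 build, and no source used here gives the annotation, strand setting or filters. No read filter or unique molecular identifier is stated, so counts are amplified reads. Of 38924 identifiers 37607 matched GENCODE M21 gene names. The headers of the count table do not tell the samples of a group apart, so its columns were used as unnumbered replicates. Replicates 1 and 2 of the regularized log table nonetheless followed columns A and B, also in genes with A higher. Activated E2f1 was 6.74 and 6.35 there, beside 4.87 and 3.26 CPM in activated A and B. Resting Orc1 was 6.05 and 7.48, beside 2.14 and 8.29 CPM in resting A and B. By these values A matches replicate 1 and B replicate 2.

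Counts were tested on all genes with edgeR 4.0.16 (R 4.3.3): filterByExpr (minimum count 10, minimum total 15), TMM scaling, quasi-likelihood fit on group, Benjamini-Hochberg adjustment, threshold 0.05. Log2 ratios of libraries used a prior count of 2. The edgeR fit was tested on simulated counts. Alternatives were DESeq2 1.42.0, limma-voom and limma (3.58.1) on the regularized log values, other size factors, no filter, a prior count of 0.5, and leaving out each library. Totals of 20282062 to 31851982 gave 19 to 15820 counts per gene and library of the 49. Exons shared with another gene cover over 5% of the length of 13 of the 49.

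The genes, lists, roles and motifs were chosen with earlier results of these data known. Values in every library were given for the member of highest level per kilobase of each role, the 6 with the smallest p, the 6 largest and 6 smallest resting ratios, and Mcm2, Pcna, Rrm2, Tyms, Ccne1, Ccne2, E2f1 and E2f2. A further erythroid marker of the design is not reported here. From each further list came the 2 with the smallest p and the 2 with the highest mean CPM. Such values of other members were added after they were seen, to fill each role. Promoters came from RefSeq (GRCm38.p6), and those shown belong to the 3 largest and 3 smallest resting ratios.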

Additional observations from a re-analysis of the deposited data

How the results depend on the processing

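Leaving out each library in turn moved the median log2 fold change of the 49 genes between -0.44 and 0.58, the count lower at an unadjusted p between 0 and 6, the count higher between 0 and 4, the count not overlapping with activated lower between 2 and 36 and with activated higher between 2 and 35, the count with more spread within groups between 29 and 44, and the genes called among all genes by edgeR between 0 and 370. Where 1 library was left in a group, it was taken to vary like the other group. The median, near 0, changed sign under RLE size factors (0.0027), DESeq2 (0.0041) and limma on the regularized log values (0.048 with and without the replicate block). Keeping genes with any count gave 852 genes called (3.24% of those tested), 1 of the 49 lower at an unadjusted p (2.1%), and 1 not overlapping with activated higher (15.5%). DESeq2 called 442 genes, 0 of them among the 49.

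The columns of a group carry different replicate numbers in the regularized log table only. Deviations of same-numbered samples correlated at 0.65 over tested genes. The animals were independent and there were only 2 numbers, so the numbers were not taken as pairs in the main fit. Independent animals may still share a preparation, which was not tested. Any difference between the numbers thus counts as error in the main fit. With the replicate block, limma called 1552 genes (10.9%), 1 of them among the 49 (E2f2, log2 difference -0.50, adjusted p = 0.0316), with 3 of the 49 lower (9.85% of all genes) and 3 higher (13.1%) at an unadjusted p.

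Of 161 refits of 23 named genes, 133 kept the sign and 28 reversed it, in 15 genes. Reversals numbered 11 without resting B, 8 without activated A, 4 without resting A, 2 without activated B, 3 under limma-voom and 0 under RLE factors and DESeq2. With single libraries left out, the log2 fold change ran, for Mcm4 from -0.41 to 0.0701, Pcna from -0.50 to 0.21, Rrm2 from -0.99 to 1.34, Dut from -0.54 to 0.56, Chaf1b from -0.69 to 0.33, E2f2 from -1.04 to 0.0047, Pole2 from -1.16 to 0.053. It also ran, for Gins1 from -0.68 to 1.74, Mcm10 from -1.04 to 1.08, Chaf1a from -0.72 to 1.27, Orc1 from -0.71 to 1.19, E2f1 from -0.35 to 1.47, Mcm2 from -0.64 to 0.21, Tyms from -0.29 to 1.20, Ccne2 from -0.33 to 1.06. Limma-voom reversed Rrm2 (0.068), Chaf1a (0.12) and Orc1 (0.014). E2F-type words were in 20% of promoters with only the 250 bases before the start, beside 37.5%. Counts of 19 to 120 limit Chaf1a most. The cause of these changes was not tested.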
